A study of Mus musculus with 47 samples.

Results

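Cortical gene expression was compared between ZT22, late in the dark phase, and ZT10, late in the light phase, in mice whose microglia had been depleted. Zeitgeber time (ZT) counts hours from lights on, with lights off at ZT 12, so the compared times lay 12 h apart. It takes the 8 libraries, 4 mice per time, that the labels give as PLX5622 at these times, of the 47 in the series. The series holds bulk RNA-seq of microdissected cortex collected at 6 times of day, 4 h apart, on 2 diets, with 4 libraries per group except control ZT 14, which has 3. All mice were young adult male C57BL/6J (wild type) animals. The microglia-depleted mice ate chow with PLX5622 at 1200 ppm for 10 days, and the control mice ate control chow over the same period. PLX5622 blocks the receptor CSF1R, whose signal microglia need to survive. The drug also acts on other CSF1R-dependent macrophages, and the mice still carried residual microglia. Mice were housed 4 to a cage, and the sources used here do not say whether the 4 mice of a group shared a cage. The 8 control libraries of ZT22 and ZT10 served to set the same 12 h difference beside that of untreated mice.

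The mammalian clock is a loop of transcription and translation that runs in nearly every cell, cortical neurons and glia included. CLOCK or NPAS2 pairs with BMAL1 (encoded by Arntl) and binds E-boxes in DNA. It thereby activates the Per and Cry genes, whose proteins return to block it, and the genes of the nuclear receptors REV-ERBα and REV-ERBβ (Nr1d1 and Nr1d2), which repress Arntl. The same activators drive output factors such as Dbp, whose protein binds D-boxes, and Ciart and Bhlhe41, whose proteins repress CLOCK-BMAL1. Genes with these roles therefore peak at different hours, and a 12 h contrast sees each of them at a different stage of its cycle. Microglia carry a clock of their own, and in bulk cortex their transcripts are diluted by those of neurons and other glia.

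The promoters shown here carry the canonical E-box CACGTG, in capitals, in genes that passed the test described next (Ciart and Bhlhe41) and in clock genes that did not (Per1 and Cry1). They were read from RefSeq on GRCm38.p6 and are written 5′ to 3′ on the gene's own strand, within windows reaching 250 bases before the transcription start and 50 after it.
Ciart (chr3:95882259-95882358, minus strand, 130 to 31 bases before the start): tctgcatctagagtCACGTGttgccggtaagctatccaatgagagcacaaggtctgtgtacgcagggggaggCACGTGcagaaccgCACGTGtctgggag
Bhlhe41 (chr6:145865521-145865620, minus strand, 200 to 101 bases before the start): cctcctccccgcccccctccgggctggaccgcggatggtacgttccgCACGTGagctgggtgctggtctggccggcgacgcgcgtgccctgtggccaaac
Per1 (chr11:69098739-69098838, plus strand, 210 to 111 bases before the start): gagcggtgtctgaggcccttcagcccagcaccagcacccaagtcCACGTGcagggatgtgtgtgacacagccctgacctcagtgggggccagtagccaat
Cry1 (chr10:85185075-85185174, minus strand, 120 to 21 bases before the start): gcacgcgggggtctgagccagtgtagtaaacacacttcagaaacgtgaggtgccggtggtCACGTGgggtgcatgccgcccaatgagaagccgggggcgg
Ciart had 3 copies of the hexamer, beginning 116, 58 and 44 bases before the start, and the other 3 windows had 1 each. The hexamer reads the same on both strands. It was found in 11.6% of the tested genes that have such a window, in 2 of 10 genes lower at ZT22 and in 0 of 4 genes higher at ZT22. No copy lay in the windows of Dbp, Nr1d1 or Nr1d2, which says only that these letters are not within that short stretch. Tef, a clock output gene that did not pass, also held a copy. The variant CACGTT, also searched for, lay 28 bases before the start of Nr1d1, on the other strand. It was found in 6.36% of the tested genes with a window, in 2 of 10 genes lower at ZT22 and in 1 of 4 higher.

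The compared libraries held 16795170 to 22039816 counts each at ZT10 and 17161327 to 21491651 at ZT22. Markers of cortical excitatory neurons were present in all 8, with Slc17a7, the vesicular glutamate transporter, between 520 and 779 TPM (a level corrected for transcript length and library size). Transcripts of other brain regions were present too and varied between libraries, with the hypothalamic hormone gene Oxt between 2.35 and 117 TPM. Summed over 24 microglial genes, the PLX5622 libraries held 174 to 336 TPM, against 1044 to 1338 in the 8 control libraries. Ctsd, a lysosomal protease gene that other cell types also express, made up 142 to 197 TPM of the PLX5622 sums. Without it, as computed after its values were seen, the other 23 genes summed to 31.7 to 169 TPM in PLX5622 mice and 828 to 1096 TPM in control mice. P2ry12, a purine receptor that defines homeostatic microglia, lay between 1.28 and 6.28 TPM in PLX5622 mice and between 35.8 and 47.6 in control mice. In bulk tissue, fewer cells of a type and less RNA per cell cannot be told apart. PLX5622 ZT10 replicate 2 stood apart from its group, with 2919 TPM of blood transcripts where the other 3 held 345 to 649, so counts are also given without it. Replicate 2 also had the highest blood sum of its group in PLX5622 ZT22 (1652 TPM), control ZT22 (1637 TPM) and control ZT10 (1545 TPM).

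At ZT22, 5 genes were higher and 12 were lower than at ZT10 in microglia-depleted cortex, out of 14580 tested. The clock repressor genes Ciart, Nr1d1, Nr1d2 and Bhlhe41, the clock output Dbp and the cold-inducible RNA-binding protein genes Rbm3 and Cirbp were among those lower. The clock activator Arntl and the tight-junction gene Cldn5 were higher. The test was limma on log2(TPM + 1), fitted to all 47 libraries, with a Benjamini-Hochberg adjusted p under 0.05, and differences are on that log2 scale, which understates the change of low genes. The 17 genes were 0.117% of those tested, 0.0343% called higher and 0.0823% called lower, while 1050 genes (7.2%) had an unadjusted p under 0.05. In all 17 the 4 values at ZT22 did not overlap the 4 at ZT10, as held for 376 genes (2.58%) lower and 179 (1.23%) higher at ZT22 among all genes tested. Non-overlap fixes the exact two-sided permutation p at 0.0286, the smallest that 4 against 4 can give, so this p is no second test. The count depended on which libraries were fitted, and the cause was not tested. Fitted to the 8 libraries alone, limma called 1 gene, Dbp. Fitted to the 24 PLX5622 libraries it also called 17, but 10 of these were among the 17 named here; Arntl, Cirbp, Nrtn, Hist3h2ba, Mtfr1l, Gm20634 and Metap2 did not pass there. Without PLX5622 ZT10 replicate 2 it called 10 genes, all among the 17. The split of higher and lower calls depended on the fit: rescaling TPM by median of ratios gave 32 higher and 24 lower, the mitochondrial share as a covariate gave 38 and 22, a 24 h cosine and sine fit gave 19 and 71, and edgeR on the deposited counts gave 29 higher and 23 lower (52 of 18274 genes, 0.285%).

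**Figure D1:**
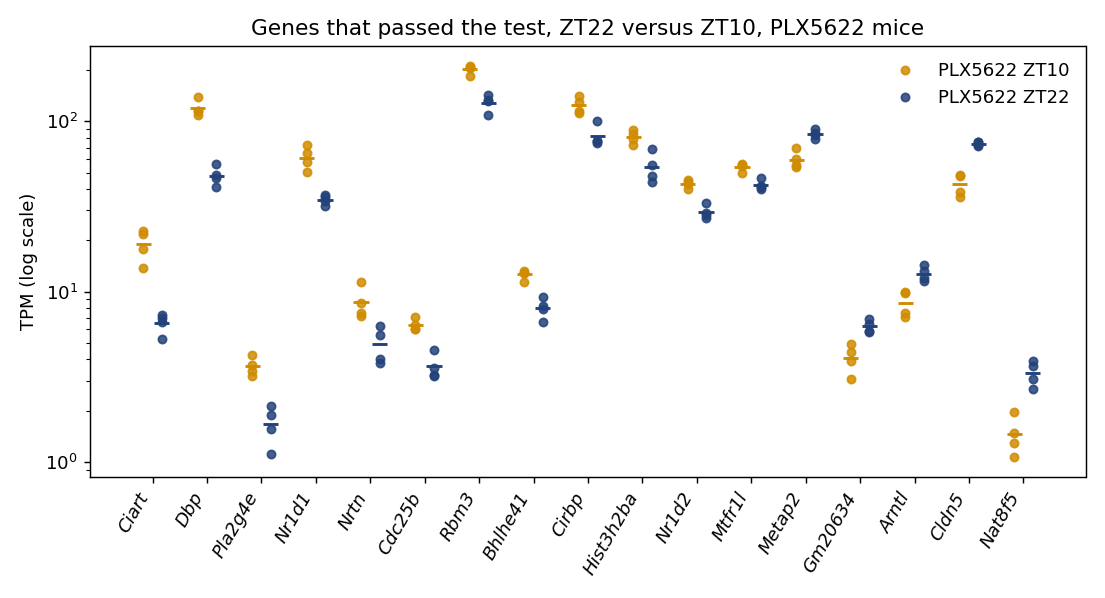
TPM (log axis) of each mouse for the 17 genes that passed the test, with ZT10 in orange and ZT22 in blue; each point is a library and each bar the mean of 4. In every gene the points of the 2 times do not overlap; Ciart is at the far left with the largest fall, Nat8f5 at the far right with the largest rise.

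Dbp (chr7:45705088-45710203, GRCm38), a PAR bZIP transcription factor that relays the clock to its target genes, had the smallest p of any gene. The ZT10 mice had 115, 138, 109 and 115 TPM, and the ZT22 mice had 46.3, 48.0, 55.9 and 41.1 TPM. The highest ZT22 mouse was thus far under the lowest ZT10 mouse, and the mean fell by 1.30 ± 0.11 (log2 difference ± SE, adjusted p = 1.25e-10) to 40.1% of its ZT10 level. Dbp was called in all 24 alternative fits. It overlaps Sphk2 on the opposite strand, and the sources do not state whether reads were counted by strand. Ciart, Arntl, Bhlhe41 and Cdc25b also overlap a gene on the opposite strand, and Pla2g4e overlaps Gm13997 on the same strand. Further overlaps are given with their genes.

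Ciart (chr3:95878503-95882251), which encodes a repressor of CLOCK-BMAL1, had the largest change among the 17 genes. It had 22.6, 13.7, 17.7 and 21.8 TPM at ZT10 and 5.29, 6.65, 7.30 and 6.99 TPM at ZT22. The ZT22 mice lay close together while the ZT10 mice were spread more widely. The fall was 1.38 ± 0.19 on the log2 scale (adjusted p = 6.1e-05), to 34.6% of the ZT10 mean.

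Both REV-ERB genes fell. Nr1d1 had 72.4, 50.1, 57.3 and 65.1 TPM at ZT10 and 35.9, 31.9, 33.9 and 37.1 TPM at ZT22, a log2 difference of -0.79 ± 0.13 (adjusted p = 6.4e-04). Nr1d2 had 43.8, 40.1, 42.8 and 45.2 TPM at ZT10 and 27.2, 28.1, 33.2 and 29.1 TPM at ZT22, a log2 difference of -0.53 ± 0.10 (adjusted p = 0.0038). These genes encode the haem-binding receptors that repress Arntl, and no ZT22 mouse reached the lowest ZT10 mouse in either. Nr1d1 overlaps Thra on the opposite strand. Bhlhe41, a basic helix-loop-helix repressor, had 12.9, 12.95, 13.2 and 11.5 TPM at ZT10 and 8.19, 7.86, 9.31 and 6.59 TPM at ZT22. The groups were again separate, with a log2 difference of -0.61 ± 0.10 (adjusted p = 6.4e-04).

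Arntl, which encodes the activator BMAL1, moved in the opposite direction to the genes of its REV-ERB repressors. Its values were 9.83, 7.05, 7.51 and 9.95 TPM at ZT10 and 12, 11.5, 13.2 and 14.3 TPM at ZT22. The lowest ZT22 mouse exceeded the highest ZT10 mouse, and the rise was 0.53 ± 0.11 on the log2 scale (adjusted p = 0.031). Nfil3, a bZIP repressor that competes with DBP at D-boxes, was also separate between the groups, at 4.98, 2.02, 3.53 and 4.12 TPM at ZT10 and 6.83, 5.53, 5.22 and 6.08 TPM at ZT22. Its difference of 0.61 ± 0.15 did not pass the limma test (adjusted p = 0.089), whereas edgeR on the counts gave 0.70 with an adjusted p of 0.019.

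Of the 20 genes in the lists of clock activators, clock repressors and PAR bZIP outputs, 6 passed. Among the activators 1 of 6 was higher (Arntl) and 0 were lower. The median log2 difference of that list was 0.14, beside -0.01 over all genes tested. Among the repressors 4 of 10 were lower and 0 higher, with a median of -0.35. The list of 4 PAR bZIP outputs holds Dbp, Tef, Hlf and their antagonist Nfil3. Dbp was lower, and Tef and Hlf differed by -0.11 and -0.03. Per1 was at 20.01 ± 7.03 TPM (SD, n = 4) at ZT22 and 27.4 ± 5.42 at ZT10, with overlapping mice and a log2 difference of -0.47 ± 0.19 (adjusted p = 0.48). Per2 was at 5.54 ± 0.56 and 6.32 ± 1.18 TPM, and Per3 at 6.95 ± 0.77 and 8.02 ± 0.93 TPM, again with overlap. Cry1 and Cry2 differed by 0.09 and -0.09, and Clock, Npas2, Rora and Rorb by 0.07 to 0.25, none past the test.

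The other 4 times show where in the cycle the contrast fell. In PLX5622 mice the mean of Dbp climbed from 42.7 ± 2.702 TPM (SD, n = 4 here and below) at ZT 2 to 126 ± 11.8 at ZT 14 and was back to 47.8 ± 6.15 at ZT 22. Ciart had its highest mean at ZT 14 (19.6 ± 1.72 TPM) and its lowest at ZT 2 (5.15 ± 0.63). The neighbouring means of ZT 10 and ZT 14 differed by less than their SD in both genes. Arntl had its highest mean at ZT 2 (16.9 ± 2.25 TPM), after ZT 22, and its lowest at ZT 10. Per2 peaked at ZT 14 (12.1 ± 3.74 TPM), between the compared times, and its ZT 10 and ZT 22 means differed by less than the SD at ZT 10. Of the 12 genes lower at ZT22, 5 had their highest mean of the day at ZT 10 and 7 at ZT 14, and 6 had their lowest mean at ZT 22, 3 at ZT 18 and 3 at ZT 2. All 5 genes higher at ZT22 had their lowest mean at ZT 10. These positions describe group means and were not tested.

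**Figure D2:**
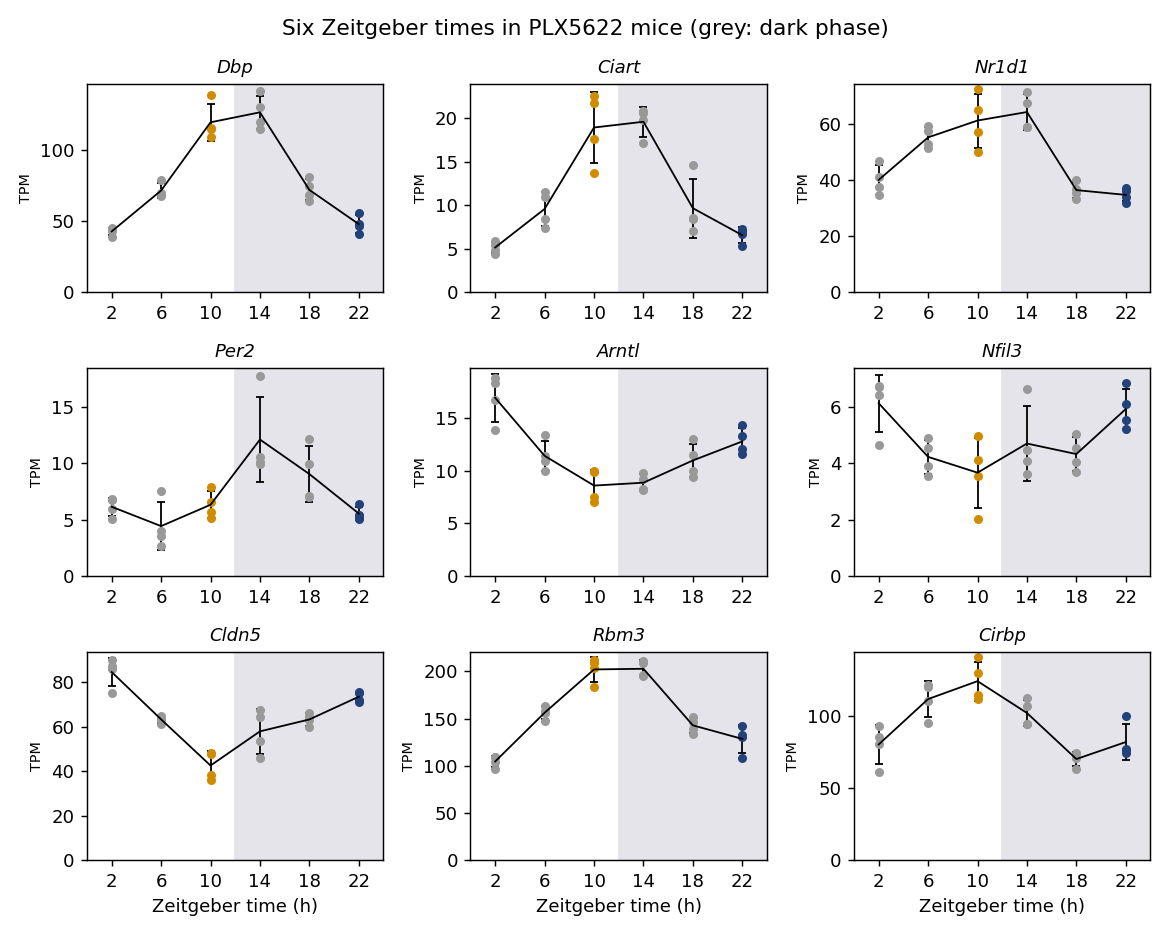
TPM of 9 genes at the 6 Zeitgeber times in PLX5622 mice (ZT in hours; points are mice, the line joins means, bars are ± SD, the dark phase is grey; ZT10 orange, ZT22 blue). Dbp, Ciart and Nr1d1 are high at ZT10 and ZT14 and low at ZT22, Arntl and Cldn5 are lowest at ZT10, and the Per2 mean peaks at ZT14.

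Genes for cold-inducible RNA-binding proteins, whose transcripts rise when tissue cools, were lower at ZT22. Rbm3, whose protein binds RNA and supports translation at low temperature, had 212, 183, 209 and 204 TPM at ZT10 and 108, 133, 143 and 131 TPM at ZT22. The fall was 0.65 ± 0.09 on the log2 scale (adjusted p = 6.6e-05). Cirbp, its relative, had 141, 112, 114 and 130 TPM at ZT10 and 74.3, 76.9, 100.35 and 76.7 TPM at ZT22. Its highest ZT22 mouse stayed under its lowest ZT10 mouse, and the difference was -0.60 ± 0.11 (adjusted p = 0.0035). Of the 4 genes in this list 2 passed, both lower, and the list's median log2 difference was -0.47. Rbm3 has an antisense gene, Rbm3os, whose reads cannot be told apart without strand.

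Cldn5, the claudin that seals tight junctions of the blood-brain barrier, had the smallest p among the genes that rose. The ZT10 mice had 48.4, 47.7, 35.9 and 38.4 TPM and the ZT22 mice had 72.2, 75.6, 71.2 and 75.1 TPM. The rise to 173% of the ZT10 mean had a log2 difference of 0.79 ± 0.11 (adjusted p = 6.6e-05). The other 13 genes of the endothelial and barrier list did not pass. Pecam1 and Cdh5, endothelial junction genes, differed by 0.23 and 0.07, while the transporter genes Abcg2 and Slco1a4 differed by -0.55 and -0.32 with adjusted p of 0.23 and 0.55. The list's median was 0.09.

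Another 8 genes passed, of which 5 were lower. Pla2g4e, a cytosolic phospholipase A2, had 4.25, 3.42, 3.201 and 3.72 TPM at ZT10 and 1.12, 1.88, 2.14 and 1.57 TPM at ZT22. Its difference was -0.81 ± 0.16 (adjusted p = 0.022), and edgeR also called it. Nrtn, which encodes the neurotrophic factor neurturin, fell from 8.65 ± 1.93 to 4.92 ± 1.20 TPM. Cdc25b, a phosphatase that activates cyclin-dependent kinases, fell from 6.38 ± 0.51 to 3.65 ± 0.62 TPM. The histone gene Hist3h2ba fell from 81.2 ± 7.39 to 53.9 ± 10.9 TPM, and Mtfr1l, a mitochondrial fission regulator-like gene, from 53.9 ± 2.97 to 42.4 ± 2.704 TPM. The limma adjusted p of Nrtn, Cdc25b, Hist3h2ba and Mtfr1l were 0.028, 0.047, 0.032 and 0.047. In edgeR they were 0.051, 0.16, 0.026 and 0.14, so that of these it called Hist3h2ba alone. When 1 mouse was left out at a time, they stayed called in 4, 1, 2 and 2 of the 8 fits, and Pla2g4e in 3.

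Nat8f5, an N-acetyltransferase family gene, rose from 1.45 ± 0.38 to 3.33 ± 0.56 TPM (adjusted p = 0.022). It had 9 to 41 deposited counts per compared library, and edgeR did not call it (adjusted p = 0.069). It overlaps the related gene Nat8f6 on the same strand, so the split of reads between them is uncertain. Gm20634 rose from 4.08 ± 0.77 to 6.27 ± 0.51 TPM (adjusted p = 0.031) but had 0 to 5 deposited counts per library, and its locus also holds the histone genes Hist2h2aa1 and Hist2h3c1 on the same strand. Metap2, a methionine aminopeptidase gene, rose from 59.5 ± 7.31 to 84.2 ± 4.87 TPM (adjusted p = 0.047). In the counts its log2 difference was 0.13, with an edgeR adjusted p of 0.60. That was the same direction as the limma difference of 0.50 on TPM, but smaller. When 1 mouse was left out at a time, Nat8f5, Gm20634 and Metap2 stayed called in 3, 3 and 2 of the 8 fits. Of the 17 genes, 11 were also called by edgeR.

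Differences of chaperone genes, of the cytosol and of the endoplasmic reticulum alike, lay mostly above 0, though no single gene passed the limma test on unscaled TPM. The sums per mouse overlapped between the times. Heat-shock genes summed to 2283 to 3243 TPM at ZT10 and to 2873 to 3552 TPM at ZT22. Endoplasmic reticulum chaperone genes summed to 626 to 908 TPM at ZT10 and to 883 to 1080 TPM at ZT22. PLX5622 ZT10 replicate 2 had the lowest sum of both lists. All 18 heat-shock genes had positive log2 differences, with a median of 0.26 and 3 at an unadjusted p under 0.05, and in control mice 17 of 18 were positive with a median of 0.25. Of the 15 endoplasmic reticulum chaperone genes 14 were positive, with a median of 0.30, and 8 had an unadjusted p under 0.05. In control mice 14 of 15 were positive too, with a median of 0.15. After median-of-ratios scaling of TPM limma called 4 of the 15 as higher, Hspa5, Sdf2l1 and Calr among them. Hspa5, the master chaperone BiP of that compartment, had 85, 52.3, 63.7 and 79.96 TPM at ZT10 and 112, 93.0, 111.2 and 125 TPM at ZT22. The groups did not overlap, yet the difference of 0.66 ± 0.18 had an adjusted p of 0.15 in limma. Sdf2l1, a partner of BiP, was at 9.12 ± 1.16 and 15.2 ± 2.28 TPM, with a difference of 0.67 ± 0.16 (adjusted p = 0.065). EdgeR called Hspa5, Sdf2l1 and the calcium-binding chaperone gene Calr, with adjusted p of 0.027, 0.015 and 0.037. Among the heat-shock genes it called 1, Chordc1, an HSP90 partner (0.44, adjusted p = 0.047). These genes outside the 17 were singled out after their values were seen.

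Activity-dependent immediate early genes gave 0 of 25 calls in limma, 2 at an unadjusted p under 0.05, and a median log2 difference of 0.17. The spread between mice was wide: Fos differed by 0.24 ± 0.64 and Arc, which encodes a synaptic capsid-like protein, by 0.40 ± 0.49. Fosl2, a partner of JUN, and Homer1, a postsynaptic scaffold, were called by edgeR at adjusted p of 0.0098 and 0.036. ZT22 replicate 4 held 871 TPM summed over this list, against 513 to 549 in the other 3. Replicate 4 was also the highest of its group at PLX5622 ZT10 (728 TPM against 398 to 568), control ZT22 (858 against 466 to 594) and control ZT10 (809 against 392 to 423), so this sum moved with the replicate number, and its part in the results was not tested. Among 12 other genes that cycle daily in many tissues limma called 0 (3 unadjusted) and edgeR called 3 as lower, Tspan4, Coq10b and Usp2. Coq10b, a coenzyme Q carrier gene, had 18.8, 17.7, 18.04 and 19.4 TPM at ZT10 and 13.7, 13.2, 12.3 and 11.8 TPM at ZT22 (limma adjusted p = 0.078, edgeR 0.0066).

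**Figure D3:**
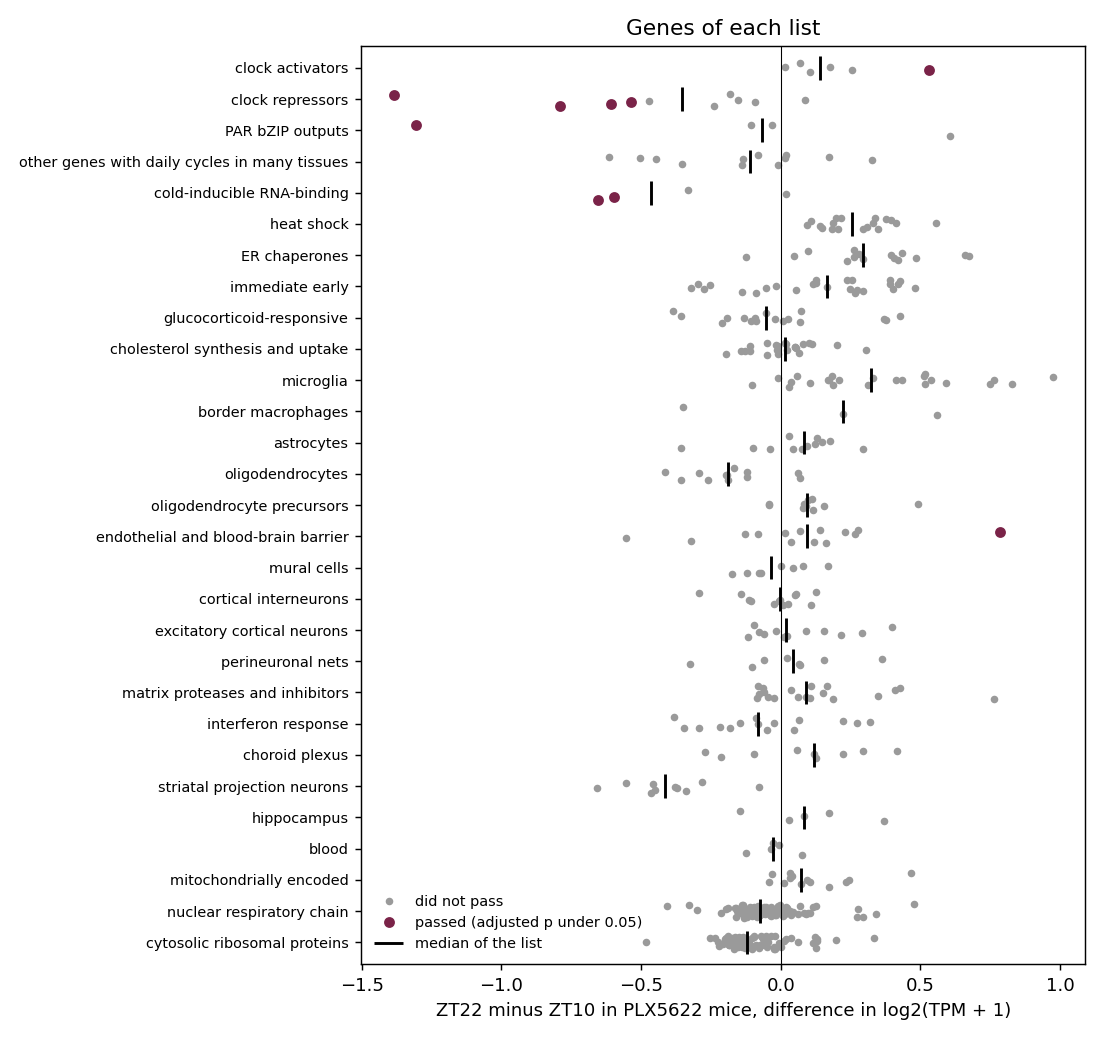
Log2 difference, ZT22 minus ZT10, of log2(TPM + 1) in PLX5622 mice for each tested gene of the 29 lists; large red points passed the test, grey points did not, and black bars are list medians. Passing genes are in the clock, PAR bZIP, cold-inducible and endothelial lists, all heat-shock points lie right of 0, and all striatal points lie left of 0.

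Residual microglial genes gave 0 of 24 calls in limma (2 at an unadjusted p under 0.05) and 0 in edgeR, and they varied most among the ZT10 mice. Summed over the 24 genes, ZT10 mice held 324, 174, 176 and 336 TPM and ZT22 mice 291, 262, 260 and 260 TPM. Thus 2 ZT10 mice were above and 2 were below all ZT22 mice. Csf1r, the drug's target, had 4.51, 0.98, 0.19 and 5.21 TPM at ZT10 and 5.88, 7.52, 3.31 and 3.73 TPM at ZT22. Its difference of 0.97 ± 0.43 had an adjusted p of 0.61. Of the 24 genes 22 had positive differences, with a median of 0.32, while the control median was -0.03. Of those 22, C1qa, Tmem119 and Siglech had a lower mean TPM at ZT22 than at ZT10 (C1qa 7.31 and 8.30 TPM). The rest had a higher mean at ZT22. Adding the microglial list level to the fit as a covariate, a setting chosen after seeing the data, left 14 genes called, of which 13 were among the 17.

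Transcripts of striatal projection neurons, which lie beneath the cortex, also differed between libraries. Their 10 genes summed to 950, 792, 629 and 998 TPM at ZT10 and to 525, 844, 940 and 326 TPM at ZT22. All 10 differences were negative, with a median of -0.41, none passed in limma or edgeR, 0 had an unadjusted p under 0.05, and in control mice all 10 were positive with a median of 0.52. With the striatal list level as a covariate, also chosen after seeing the data, 14 genes were called, 12 of them among the 17. Oligodendrocyte genes were negative in 10 of 12 (median -0.19) with 0 called in either tool and 2 at an unadjusted p under 0.05. Cytosolic ribosomal protein genes were negative in 67 of 78 (median -0.12), and nuclear respiratory chain genes in 67 of 89 (median -0.07). Limma and edgeR called 0 genes in either list, and 12 and 5 had an unadjusted limma p under 0.05. The edgeR medians were -0.08 and -0.01. PLX5622 ZT10 replicate 2 held the highest sums, 94030 TPM of ribosomal and 48913 TPM of respiratory chain transcripts. The other ZT10 mice held 73305 to 79527 and 42870 to 45409 TPM. The ZT22 mice held 74357 to 77931 and 42514 to 45300 TPM, and the part of this replicate in the medians was not tested. The other 13 lists, among them astrocytes, interneurons, excitatory neurons, interferon response, cholesterol synthesis, glucocorticoid response and choroid plexus, held 0 limma calls, with medians of -0.08 to 0.22. EdgeR called 1 of their genes, Gpr17, a receptor of oligodendrocyte precursors, at 9.38 ± 2.05 TPM at ZT10 and 13.4 ± 0.77 at ZT22 (log2 difference 0.53 in the counts, adjusted p = 0.011).

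**Figure D4:**
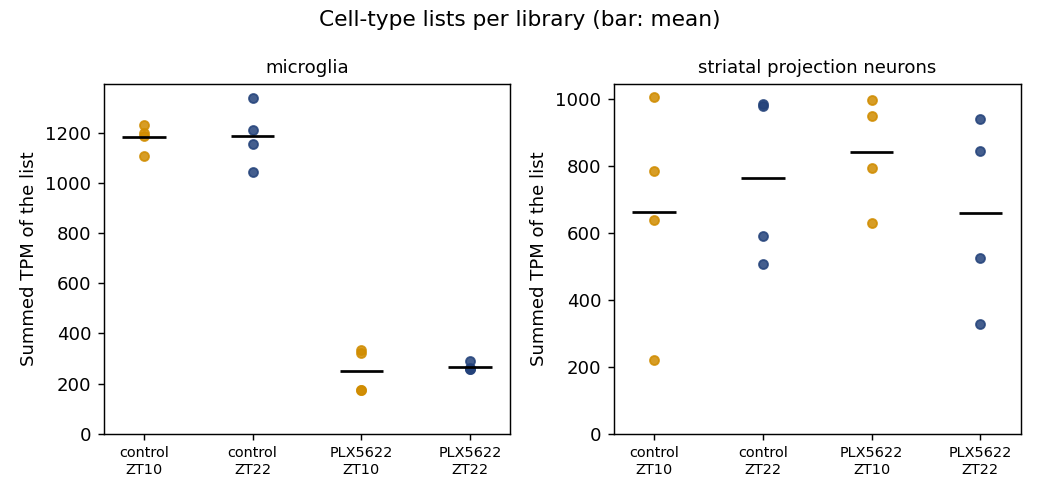
Summed TPM of the microglial (left) and striatal (right) gene lists in each library of the 4 groups, ZT10 orange and ZT22 blue, with black bars for means. The microglial sums of PLX5622 mice, 174 to 336 TPM, lie under those of control mice, 1044 to 1338 TPM; the striatal sums spread widely within every group.

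Perineuronal nets are lattices of proteoglycan around cortical interneurons that the study set out to follow across the day. Of their 12 listed genes 8 passed the filter on low values, and 0 were called at ZT22 against ZT10 by limma or edgeR, with 0 at an unadjusted p under 0.05. Hapln1, a link protein, was at 13.99 ± 1.11 TPM at ZT22 and 18.1 ± 4.33 at ZT10 (log2 difference -0.33 ± 0.19, adjusted p = 0.76). Bcan, the brevican core protein, differed by -0.06 ± 0.09 and Tnr, tenascin-R, by 0.36 ± 0.24. Acan, the aggrecan core protein, was under the filter, at 0.37 to 0.99 TPM at ZT22 and 0.33 to 0.44 at ZT10. Of the matrix proteases and their inhibitors 0 of 19 tested genes passed in limma (3 unadjusted) or edgeR. Plat, tissue plasminogen activator, had 15.4 to 17.3 TPM at ZT22 and 9.35 to 15.1 at ZT10 without overlap (0.43 ± 0.14, adjusted p = 0.31), and Mmp14 differed by 0.41 ± 0.16 (adjusted p = 0.49).

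Set beside the control mice, the same direction was seen for 16 of the 17 genes. The control comparison called 26 genes (0.178%), and 9 were called on both diets: Dbp, Ciart, Nr1d1, Bhlhe41, Arntl, Rbm3, Cirbp, Cldn5 and Gm20634. Dbp fell by 1.19 ± 0.11 in control mice, Rbm3 by 0.83 ± 0.09 and Cirbp by 0.81 ± 0.11, and Cldn5 rose by 0.56 ± 0.11. Nr1d2 differed by -0.36 ± 0.10 in control mice (limma adjusted p = 0.13), and Pla2g4e by -0.66 ± 0.16 (limma adjusted p = 0.084). EdgeR called both in control mice, with adjusted p of 1.7e-04 and 5.2e-04. It did not call Nat8f5, Metap2, Nrtn, Cdc25b, Hist3h2ba or Mtfr1l there. Of the 17 that limma called in control mice alone, all 17 had the same sign in PLX5622 mice. The share of all tested genes with matching signs is not given here, so these counts of matching signs have no background.

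The difference of the 12 h change between diets was tested directly. Limma called 0 of 14580 genes for this interaction, with 667 (4.57%) at an unadjusted p under 0.05. EdgeR also called 0, with 709 of 18274 unadjusted, and DESeq2 called 0, with 878 unadjusted. Among the 17, Mtfr1l had the smallest interaction p. Its PLX5622 difference was -0.34 ± 0.08 and its control difference 0.07 ± 0.08, so that they differed by -0.41 ± 0.11 (adjusted p = 0.59). Nrtn, Cdc25b and Hist3h2ba differed between diets by -0.53 ± 0.21, -0.51 ± 0.21 and -0.48 ± 0.18, each with an adjusted p of 0.9997. The 5 smallest interaction p belonged to Elmod3, Parp4, Hist2h2aa1, AC102496.1 and Sulf1, which all had an adjusted p of 0.59. Elmod3, a regulator of small GTPases, had 17.9 to 23.0 TPM at ZT10 and 12.3 to 17.3 at ZT22 in PLX5622 mice. It differed by -0.39 ± 0.10 there and by 0.27 ± 0.10 in control mice. Sulf1, which trims sulphate from heparan sulphate chains, differed by 0.53 ± 0.12 in PLX5622 mice and by -0.15 ± 0.12 in control mice.

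**Figure D5:**
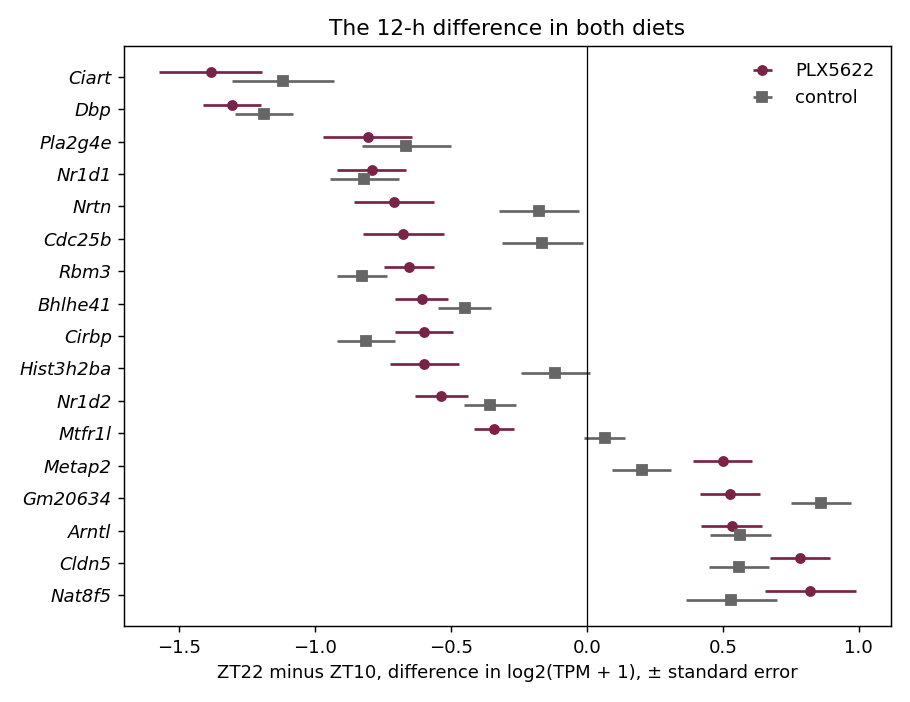
Difference in log2(TPM + 1), ZT22 minus ZT10, ± SE, for the 17 genes in PLX5622 mice (red circles) and control mice (grey squares). The signs match in all genes but Mtfr1l, whose control difference is 0.07.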

How the data were processed

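The deposited data hold bulk cortex RNA-seq of 47 mice in 2 tables. In the TPM table, per the study's methods, reads were aligned with STAR to GRCm38.p6 and quantified with Salmon on the Gencode annotation, and the authors gave TPM, a length-corrected share of the library, per gene without pooling mice. The other deposited table, though named for another unit, holds whole-number counts; the labels name mm10, STAR and featureCounts, and strandedness is not given in the sources used here. TPM fixes each library's total, so a rise of abundant transcripts lowers the rest.

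The 14580 genes whose average across the 47 mice reached 1 TPM were tested with limma 3.58.1 on log2(TPM + 1), with 12 group means and 35 residual degrees of freedom, Benjamini-Hochberg adjustment and a threshold of 0.05. edgeR 4.0.16 (quasi-likelihood) and DESeq2 1.42.0 were run on the counts as alternatives. The design used limma because the study did, so the count tests are secondary. Scripts were tested on simulated data. All 94 columns of values were mapped to samples. The closest replicate libraries differed beyond sampling noise (chi-square per degree of freedom 5.86). Gene positions are from GENCODE on GRCm38, and promoter windows from RefSeq.

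Named genes were the called genes, all clock genes, the leading member of each list, 5 microglial and net genes, and the leading genes of the control and interaction tests; list members called by edgeR were added after their values were seen. A result for 1 gene is not reported here. The comparison and the lists were chosen with earlier results of these data known. Alternatives changed the pseudocount, filter, libraries fitted, scaling, covariates and tool.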

Additional observations from a re-analysis of the deposited data

Results flagged for a closer look

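In 208 groups of 4 examined (named genes and list sums, ZT22 and ZT10 of PLX5622 mice), 9 held a mouse far from the other 3, where chance alone flags about 10.4. PLX5622 ZT10 replicate 2 accounted for 3 of them: blood transcripts summed to 2919 TPM (the other mice 345 to 649), the erythroid haem synthesis gene Alas2 was at 3.23 TPM (0.31 to 0.68) and interneuron transcripts summed to 1738 TPM (2153 to 2173). ZT22 replicate 4 was high for immediate early genes, 871 TPM against 513 to 549, and replicate 4 was also the highest at PLX5622 ZT10 and in both control groups, and for clock activators, 66.9 TPM against 62.5 to 63.2. Cirbp was at 100.35 TPM in ZT22 replicate 3, against 74.3 to 76.9. Tspan4 was at 23.7 TPM in ZT10 replicate 1, against 16.0 to 16.9. Microglial transcripts summed to 291 TPM in ZT22 replicate 1, against 260 to 262, and mitochondrially encoded transcripts to 158264 TPM in ZT10 replicate 1, the lowest of its group.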

How the results depend on the processing

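The count of 17 genes in PLX5622 mice became 1 with the 8 libraries alone, 56 with median-of-ratios scaling, 60 with the mitochondrial share as a covariate, 90 with a 24 h cosine and sine fit, 52, 53 and 52 with edgeR (TMM, median-of-ratios, no filter) and 111 with DESeq2. Leaving out 1 mouse gave 9 to 28 genes: 28 without ZT22 replicate 3, 9 without ZT22 replicate 4, 10 without ZT10 replicate 2 and 10 without ZT10 replicate 3. In all 8 of these fits, 8 genes stayed called: Dbp, Ciart, Cldn5, Rbm3, Nr1d1, Bhlhe41, Cirbp and Nr1d2. The control count of 26 became 2, 61, 58, 82, 83, 96 and 185 under the same changes (8 control libraries alone, scaling, mitochondrial share, edgeR in that order, DESeq2), and 11 to 88 when 1 mouse was left out, 88 without ZT10 replicate 1, 47 without ZT10 replicate 2, 13 without ZT10 replicate 4 and 11 without ZT22 replicate 3 or ZT10 replicate 3. The interaction count of 0 became 4 with edgeR without a filter. With the replicate block, 23 genes were called in PLX5622 mice, the 17 among them, and 61 in control mice. Residuals of same-numbered mice correlated at -0.01, 0.17, 0.06 and -0.00475 in PLX5622 mice. In control mice they correlated at 0.13, 0.07, 0.03 and 0.12, all positive. Differently numbered mice correlated at -0.136 to 0.122 in PLX5622 mice and at -0.132 to 0.116 in control mice. The labels tie the numbers to no batch or cage. Immediate early and blood sums did move with the number. Fitting the 24 PLX5622 libraries kept the count at 17 but shared 10 genes with it. Other settings kept counts within 1.5 times, and no named gene that passed changed direction. The cause of these shifts was not tested. Genes under 1 TPM, Acan among them, were tested only without that filter or on counts, where edgeR gave Acan an adjusted p of 0.33.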

Other observations

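The edgeR test on the deposited counts called 41 genes that limma on TPM did not. All 50 of its calls that limma could test had the same sign in both, but both tools read the same mice. The genes named here were chosen after their values were seen. RNA-processing genes were among the 41, in both directions. Hnrnpm and Sfpq, nuclear RNA-binding proteins, were higher at ZT22 by 0.39 and 0.45 on the log2 scale (adjusted p = 1.1e-04 and 0.0026). Hnrnpdl had a difference of -0.40 (adjusted p = 0.026). On log2(TPM + 1), limma gave Hnrnpm, Sfpq and Hnrnpdl differences of 0.21, 0.30 and -0.40, none past the test. Tfrc, the transferrin receptor, had a difference of -0.33 (adjusted p = 0.0098), P4ha1, a collagen prolyl hydroxylase subunit, of 0.47 (adjusted p = 0.0010) and Gabra2, a GABA-A receptor subunit, of 0.45 (adjusted p = 0.026). Sphk2, which overlaps Dbp on the opposite strand, was higher by 0.58 (adjusted p = 3.8e-04), the direction opposite to that of Dbp.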
